A study of Chlamydomonas reinhardtii with 21 samples.

Results

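The genes described here are 10 genes of the carbon-concentrating mechanism of the green alga Chlamydomonas reinhardtii, picked by gene identifier out of the 17741 gene models for which transcript abundance was measured. They are CAH1 (Cre04.g223100), CAH4 (Cre05.g248400), CAH5 (Cre05.g248450), HLA3 (Cre02.g097800), LCI1 (Cre03.g162800), LCIA (Cre06.g309000), CCP1 (Cre04.g223300), LCIB (Cre10.g452800), LCIC (Cre06.g307500) and CIA5 (Cre02.g096300). The rule that lists them uses no measured value, but the genes were chosen with earlier results of these data known.

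The carbon-concentrating mechanism raises the CO2 level around Rubisco, the enzyme that fixes CO2, when the supply of inorganic carbon is low. Bicarbonate is taken up through the plasma membrane and the chloroplast envelope, and carbonic anhydrases, which interconvert CO2 and bicarbonate, release CO2 in the pyrenoid, the compartment of the chloroplast where Rubisco is packed. Transcripts of most of its genes are scarce at high CO2 and accumulate at low CO2 under the control of CIA5, a zinc-binding regulatory protein whose own transcript is known to be present in both conditions.

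The study asked whether the sirtuin-type histone deacetylase SRTA acts on endogenous genes as it does on transgenes. RNA was sequenced from 21 cultures grown in liquid acetate medium (TAP) under continuous light, in 2 batches. Batch 1 comprised the mutants UVM4 (srta-2) and UVM11 (srta-1) and their parent Elow47 (SRTA wild type), with 4 cultures of each strain. Batch 2 comprised UVM11-C1 and UVM11-C9, complemented by adding the SRTA wild-type allele to srta-1, and UVM11 itself, with 3 cultures each. Elow47 is a single clone, obtained by co-transformation of a cell wall-deficient, arginine-requiring strain with CRY1-1 and ARG7, and all strains here descend from it. UVM4 and UVM11 are single UV-induced mutants that also carry other mutations, so that an effect of srta cannot be told apart from theirs in a mutant compared with Elow47. Each complemented strain is 1 transformant, kept on hygromycin and carrying a FLAG-tagged SRTA copy under the SRTA promoter. UVM11 is the only strain present in both batches.

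In the RefSeq annotation of the v5.5 assembly, CAH5 lies on chromosome 5 from 768025 to 770332 and CAH4 follows 2065 bases further on, from 772398 to 774699. CAH1 lies on chromosome 4 from 2662125 to 2666375 and CCP1 on the same chromosome from 2690711 to 2693793, with 24335 bases between them. LCIC (8466076 to 8469153) and LCIA (8604782 to 8607670) are both on chromosome 6. CIA5 (3907698 to 3914283) and HLA3 (4110306 to 4117464) are both on chromosome 2, with 196022 bases between them. LCI1 is on chromosome 3 from 2885264 to 2887871 and LCIB on chromosome 10 from 4608866 to 4611901. CAH4 and CAH5 are known as near-identical copies, as are CAH1 and its neighbour CAH2, and CCP1 and CCP2, so that the assignment of fragments within these pairs is uncertain.

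Levels are in FPKM, which scales fragments to gene length and to the mapped size of the library, so that levels can be set side by side between genes. The FPKM of a library summed to between 542464 and 617687, and no read totals come with these values, so that precision is given only as the spread between cultures. Within a strain and batch, libraries correlated with r from 0.9916 to 0.9979 over genes on the log2 scale, and Elow47 culture 3 gave the lowest of these values, 0.9916. SRTA itself had 5.10, 5.63 and 4.84 FPKM in UVM11-C1, and 3.47, 3.66 and 3.32 FPKM in UVM11-C9, against 2.92, 2.65 and 2.83 FPKM in UVM11 of batch 2, and 2.65 to 3.99 FPKM in the 12 cultures of batch 1. Since srta-1 and srta-2 alter the encoded protein, the level of SRTA does not check the labels of the mutants. SRTA was higher in UVM11-C1 by 0.87 ± 0.11 on the log2 scale (SE, adjusted p = 1.82e-05 by limma), and the difference of 0.30 in UVM11-C9 did not pass (adjusted p = 0.0304 by limma). These levels do not separate the srta-1 transcript from that of the added copy. The paper reports that both complemented strains still expressed the added allele strongly. It also reports that most colonies given a new YFP transgene had little or no fluorescence. Fold changes are on the scale log2(FPKM + 0.1), which understates those of genes near 0. A gene passed the test at an adjusted p below 0.01 from limma over all 15425 genes tested, and is called a differentially expressed gene (DEG) where the log2 fold change also exceeded 1 in size.

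**Figure D1:**
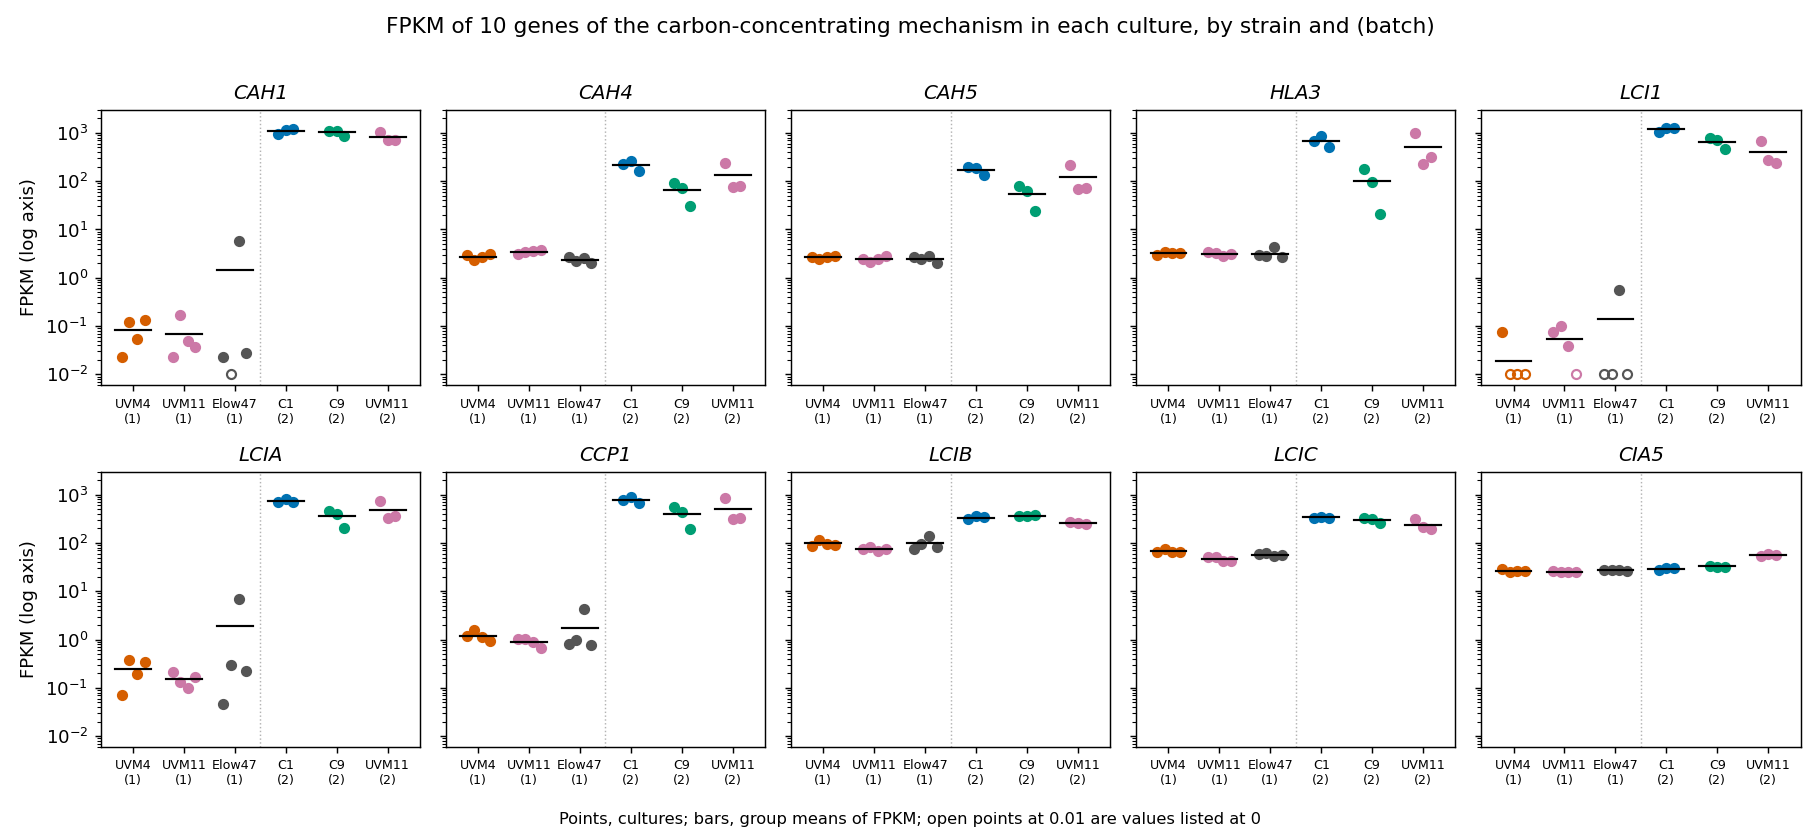
FPKM of each of the 10 genes on a log axis, with 1 point per culture, grouped by strain and batch, with 4 cultures per group in batch 1 and 3 in batch 2. Black bars are group means, and open points drawn at 0.01 are values listed at 0. In 9 panels every culture of batch 2 is above every culture of batch 1, while in the CIA5 panel only UVM11 of batch 2 stands clearly above the other groups. Elow47 culture 3 stands above the other cultures of batch 1 in the panels of CAH1, LCIA, LCI1 and CCP1.

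The 10 genes were at sharply different levels in the batches. Together they held 0.419% to 1.03% of the FPKM of a library in the 9 cultures of batch 2, against 0.0261% to 0.0445% in the 12 cultures of batch 1. In 9 of the 10 genes every culture of batch 2 exceeded every culture of batch 1, which holds for 7.94% of all genes tested. The exception was CIA5. In RNA from whole cultures, fewer expressing cells and less transcript per cell cannot be told apart.

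The order of the levels was also different. In all 3 strains of batch 1, LCIB, LCIC and CIA5 were the most abundant of the 10, in this order and without overlap between cultures, at mean FPKM of 98.3, 67.8 and 26.7 in UVM4, for example. HLA3, CAH4 and CAH5 followed at means of 2.38 to 3.46 FPKM, and the ranges of neighbours in this order overlapped. CAH1, LCIA and LCI1 were below 0.4 FPKM in every culture of batch 1 other than Elow47 culture 3. In batch 2, CAH1, at a mean of 1095 FPKM in UVM11-C1, 1028 FPKM in UVM11-C9 and 827 FPKM in UVM11, was the first or the second of the 10 in each strain, and CIA5 was the last. LCI1 led in UVM11-C1 at a mean of 1187 FPKM, and its range overlapped that of CAH1 there.

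UVM11, grown in both batches, gives the comparison of batches within a strain. All 10 genes were higher in batch 2, and all 10 were DEGs, while 4.15% of all genes tested were DEGs of this direction and 43.6% of all genes passed in either direction. The median log2 fold change of the 10 genes was 6.17, against -0.00 over all genes. CAH1, LCI1 and LCIA had the 3 largest increases of the 15425 genes tested. Since the 7 cultures differ in batch as a whole, the batch cannot be told apart from anything else that differed between the 2 sets of cultures.

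The carbonic anhydrases included the gene with the largest difference. CAH1, the periplasmic enzyme, had 1036, 731 and 715 FPKM in UVM11 of batch 2, against 0.0227, 0.168, 0.0482 and 0.0364 FPKM in UVM11 of batch 1. The estimate was 12.31 ± 0.86 on the log2 scale (SE, limma adjusted p = 6.3e-10), and 9.58 or 13.66 with 1 or 0.01 in place of 0.1 FPKM as the pseudocount, so that its size depends on the pseudocount. CAH1 averaged 0.0689 FPKM in UVM11 of batch 1, below the minimum mean of 0.1 FPKM for testing. Among the cultures compared here it met this minimum only through batch 2. Its mean of 0.538 FPKM over batch 1 was raised by Elow47 culture 3, at 5.79 FPKM. By level, CAH1 ranked between 110 and 157 of all 17741 genes in the cultures of batch 2, and at 14983 or lower in the cultures of batch 1 other than Elow47 culture 3, where it ranked at 7528.

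CAH4 and CAH5, a pair of mitochondrial enzymes, moved together between the batches. CAH4 had 236, 77.3 and 80.9 FPKM in UVM11 of batch 2, against 3.14, 3.47, 3.54 and 3.70 FPKM in UVM11 of batch 1. CAH5 had 219, 68.1 and 74.0 FPKM in batch 2, against 2.48, 2.11, 2.41 and 2.80 FPKM in batch 1. Culture 5 of UVM11 was about 3 times as high as cultures 6 and 7 in both genes, and the groups were far apart. The ratios of mean FPKM were 38.0 for CAH4 (log2 fold change 5.0 ± 0.32, SE, limma adjusted p = 1.94e-10) and 49.1 for CAH5 (5.35 ± 0.33, SE, limma adjusted p = 1.12e-10). The ratio of CAH4 to CAH5 stayed between 1.08 and 1.37 in the cultures of batch 2 and between 0.884 and 1.64 in those of batch 1, over which both levels changed by far more. Within batch 1 the ratio was 1.26 to 1.64 in UVM11, above 0.963 to 1.075 in UVM4 and 0.884 to 1.04 in Elow47. Since the assignment of fragments between these copies is uncertain, their likeness cannot be told apart from shared fragments.

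Genes of inorganic carbon transport were the next group. HLA3, an ABC transporter that takes up bicarbonate at the plasma membrane, had 973, 224 and 311 FPKM in UVM11 of batch 2, against 3.38, 3.30, 2.77 and 3.08 FPKM in UVM11 of batch 1 (log2 fold change 6.98 ± 0.48, SE, limma adjusted p = 5.57e-10). Without culture 5 of UVM11 the log2 fold change of HLA3 was 6.36. LCI1, a plasma membrane protein of inorganic carbon uptake, had 670, 274 and 242 FPKM in batch 2, against 0.0735, 0.102, 0.0390 and 0 FPKM in batch 1 (11.22 ± 0.49, SE, limma adjusted p = 6.68e-13). LCI1 averaged 0.0700 FPKM over batch 1, below the minimum mean of 0.1 FPKM for testing, so that it was tested because of its level in batch 2. With a pseudocount of 1 or 0.01 its log2 fold change was 8.40 or 12.90.

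LCIA, an anion channel of the chloroplast envelope, had 740, 328 and 359 FPKM in UVM11 of batch 2, against 0.211, 0.130, 0.0994 and 0.169 FPKM in UVM11 of batch 1. The difference was 10.80 ± 0.79 on the log2 scale (SE, limma adjusted p = 1.07e-09). CCP1, a protein of the mitochondrial carrier family, had 843, 310 and 332 FPKM in batch 2, against 1.02, 1.05, 0.897 and 0.659 FPKM in batch 1 (8.80 ± 0.44, SE, limma adjusted p = 7.01e-12). With a pseudocount of 1 the log2 fold changes were 8.59 for LCIA and 7.87 for CCP1, and with 0.01 that of LCIA was 11.47. As for CAH4, CAH5, HLA3 and LCI1, culture 5 was the highest of the 3 UVM11 cultures of batch 2 in both genes. LCIA and CCP1 stood at nearly equal levels in each culture of batch 2, with a CCP1 to LCIA ratio of 0.925 to 1.21, whereas in batch 1 without Elow47 culture 3 the ratio was 2.66 to 17.6, at LCIA levels under 0.4 FPKM.

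LCIB and LCIC, which form a complex near the pyrenoid and belong to a family of carbonic anhydrase-like proteins, were already abundant in batch 1. LCIB had 277, 261 and 244 FPKM in UVM11 of batch 2, against 75.1, 81.6, 69.9 and 75.8 FPKM in UVM11 of batch 1, a ratio of means of 3.45 (log2 fold change 1.78 ± 0.14, SE, limma adjusted p = 1.71e-09). LCIC had 315, 211 and 194 FPKM in batch 2, against 52.4, 51.6, 41.7 and 43.2 FPKM in batch 1, a ratio of means of 5.08 (2.32 ± 0.12, SE, limma adjusted p = 1.19e-11). Both genes were higher in each UVM11 culture of batch 2, with much smaller ratios than the genes of the transporters. The ratio of LCIB to LCIC was 0.880 to 1.45 in the cultures of batch 2, against 1.30 to 2.65 in those of batch 1.

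CIA5, the regulator of the other 9 genes, had 53.2, 58.3 and 56.8 FPKM in UVM11 of batch 2, against 25.7, 24.6, 25.4 and 25.1 FPKM in UVM11 of batch 1. The difference of 1.15 ± 0.05 on the log2 scale (SE, limma adjusted p = 2.9e-13) was the smallest of the 10, with the narrowest spread between cultures. In the other strains of batch 2 CIA5 was at 28.1 to 33.6 FPKM, against 24.6 to 28.5 FPKM over all cultures of batch 1. UVM11 of batch 2 stood apart from both, whereas the other 9 genes were above every culture of batch 1 in all 3 strains of batch 2.

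**Figure D2:**
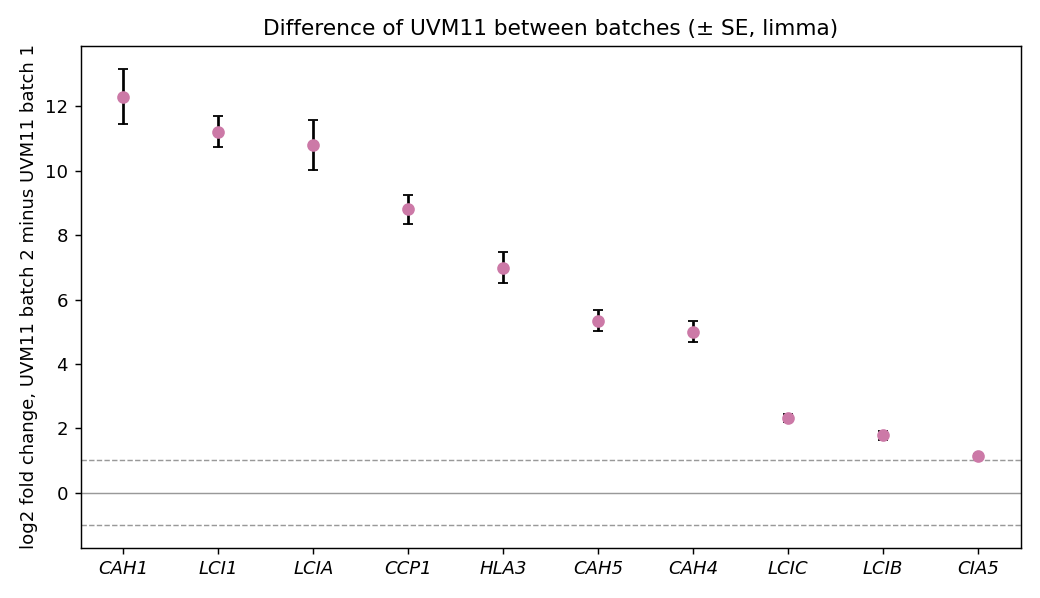
Log2 fold change of each of the 10 genes between UVM11 of batch 2 (3 cultures) and UVM11 of batch 1 (4 cultures), with bars of ± 1 SE from limma and dashed lines at the DEG threshold of 1 in either direction. The values fall from 12.31 for CAH1 to 1.15 for CIA5, and all 10 are above the threshold.

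Among 20 other genes of the carbon-concentrating mechanism and of Rubisco, 11 were higher and 3 lower in UVM11 of batch 2, and 9 and 1 of these were DEGs. Their log2 fold changes ranged from -1.26 to 5.83 with a median of 0.50. Of 6 genes of photorespiration, the pathway that recycles the product of oxygen fixation by Rubisco, 5 were higher and none was a DEG, with a median of 0.46. The share of passing genes over the whole genome was 21.6% higher and 22% lower.

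The genes whose levels over the 21 libraries were most like the mean standardized profile of the 9 genes other than CIA5 were Cre04.g222750, Cre11.g477350, Cre12.g555700, Cre06.g281600 and Cre16.g685050, with r from 0.995 to 0.998 among 13499 candidates with a mean above 1 FPKM. These correlations largely restate the difference between batches, which all 21 points share. After the mean of each strain and batch was subtracted, Cre04.g222750, 1 of the 20 other genes above, again came first (r = 0.955). It had 52.6 to 196 FPKM in batch 2, against 1.57 to 4.44 FPKM in batch 1. This gene was listed as CCP2, a name that the annotation used does not give, and CCP1 is 1 of the 9 genes of the profile. Fragments shared between these near-identical copies therefore cannot be told apart from a likeness of their levels.

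Within batch 1, none of the 10 genes passed in either srta mutant against Elow47. In UVM4 against Elow47, 4.08% of all genes passed, and by limma 1 of the 10 genes, LCIC, had an unadjusted p below 0.05, against 22% of all genes. In UVM11 against Elow47, 4.01% of all genes passed, and 3 of the 10, LCIB, LCIC and CIA5, had an unadjusted p below 0.05 by limma, against 21.7% of all genes. The median log2 fold change of the 10 genes was -0.00 in UVM4 and -0.20 in UVM11, against -0.00 and -0.01 over all genes. None of the 20 other genes and none of the 6 photorespiration genes passed in these comparisons by limma, in each of which 3 of the 20 and 0 of the 6 had an unadjusted p below 0.05.

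Elow47 culture 3 set the spread of several genes in these comparisons. CAH1 had 5.79 FPKM in it, against 0.0226, 0 and 0.0277 FPKM in the other 3 cultures of Elow47. LCIA had 7.08 FPKM in it, against 0.0465, 0.294 and 0.228 FPKM in those cultures. CCP1 had 4.26 FPKM in it, against 0.818, 0.964 and 0.759 FPKM. In 7 of the 10 genes, CAH1, CAH5, LCIA, LCIB, HLA3, LCI1 and CCP1, culture 3 was above the other 11 cultures of batch 1, which holds for 15.6% of all genes tested, and in all 10 it was below every culture of batch 2.

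Without this culture, still none of the 10 genes passed in UVM4 or UVM11 against Elow47. The log2 fold change of CAH1 was then 0.61 in UVM4 and 0.47 in UVM11, against -0.81 and -0.95 with it (limma adjusted p = 0.129 and 0.239 without it, 0.610 and 0.541 with it). That of LCIA was 0.27 in UVM4 and -0.10 in UVM11 without the culture, against -0.92 and -1.29 with it. No call rests on the sign of these values. CAH1 had 0.0229, 0.122, 0.0539 and 0.135 FPKM in UVM4, a range that overlaps that of UVM11 and that of the other 3 cultures of Elow47.

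HLA3, CAH5, LCI1 and CIA5 did not pass between a mutant and Elow47 either. HLA3 had 3.01, 3.45, 3.20 and 3.18 FPKM in UVM4, and 3.38, 3.30, 2.77 and 3.08 FPKM in UVM11, against 2.98, 2.77, 4.26 and 2.69 FPKM in Elow47. CAH5 had 2.74, 2.44, 2.70 and 2.82 FPKM in UVM4, and 2.48, 2.11, 2.41 and 2.80 FPKM in UVM11, against 2.63, 2.4, 2.86 and 2.07 FPKM in Elow47. The cultures of the 3 strains overlapped in both genes. LCI1 was listed at 0 in 3 of 4 cultures of UVM4, 1 of 4 of UVM11 and 3 of 4 of Elow47, and the other values of batch 1 were at most 0.551 FPKM, in Elow47 culture 3. CIA5 had 28.5, 25.7, 26.4 and 26.2 FPKM in UVM4, and 25.7, 24.6, 25.4 and 25.1 FPKM in UVM11, against 28.1, 27.7, 27.5 and 25.9 FPKM in Elow47.

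CAH4 was the only 1 of the 10 of which every culture of UVM11 lay above every culture of Elow47, as in 6.94% of all genes, with 3.14, 3.47, 3.54 and 3.70 FPKM in UVM11, against 2.75, 2.19, 2.53 and 2.05 FPKM in Elow47. It did not pass (log2 fold change 0.53 ± 0.30, SE, limma adjusted p = 0.320), and passed when the model held the 2 strains alone (limma adjusted p = 0.00861). In a model of batch 1 alone CAH4 also passed (limma adjusted p = 0.00394), but not with the replicate number as a block (limma adjusted p = 0.0106).

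LCIC and CIA5 were the 2 genes of which every culture of UVM11 lay below every culture of Elow47, as in 7.33% of all genes. LCIC had 52.4, 51.6, 41.7 and 43.2 FPKM in UVM11, against 58.2, 62.2, 52.9 and 56.6 FPKM in Elow47, and did not pass (log2 fold change -0.29 ± 0.11, SE, limma adjusted p = 0.132). In a model of batch 1 alone with the replicate number as a block LCIC passed (limma adjusted p = 0.00569), and without the block it did not (limma adjusted p = 0.0277). CIA5, with the values given above, passed in none of the alternatives.

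The 2 mutants differed from each other in 1 of the 10 genes, LCIC, with 4.75% of all genes passing. LCIC had 66.1, 73.5, 66.1 and 65.2 FPKM in UVM4, against 52.4, 51.6, 41.7 and 43.2 FPKM in UVM11, without overlap. The difference was 0.53 ± 0.11 on the log2 scale (SE, limma adjusted p = 0.00404). Elow47 lay between them, with 58.2, 62.2, 52.9 and 56.6 FPKM. The call was lost without UVM4 culture 2 or 3 or without UVM11 culture 3 or 4, at limma adjusted p from 0.0107 to 0.0198.

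LCIB pointed the same way, with 87.6, 117, 96.5 and 92.4 FPKM in UVM4, against 75.1, 81.6, 69.9 and 75.8 FPKM in UVM11. The log2 fold change of 0.37 ± 0.13 (SE) did not pass with all cultures (limma adjusted p = 0.0684), and passed without Elow47 culture 3 (limma adjusted p = 0.00263). CAH4 differed the other way, with 2.93, 2.35, 2.64 and 3.03 FPKM in UVM4, against 3.14, 3.47, 3.54 and 3.70 FPKM in UVM11, and did not pass (log2 fold change -0.33 ± 0.30, SE, limma adjusted p = 0.550). Groups of UVM4 and UVM11 did not overlap in 3 of the 10 genes, LCIB and LCIC above and CAH4 below, where 12.6% and 9.44% of all genes do so in these directions.

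Within batch 2, the 2 complemented strains differed from UVM11 in partly different genes, and CIA5 was lower in both. Each is 1 transformant kept on hygromycin, so that the added SRTA allele cannot be told apart from the clone or its selection. In UVM11-C1 against UVM11, 2 of the 10 genes passed, LCIC higher and CIA5 lower, while 8.34% of all genes passed. In UVM11-C9 against UVM11, 3 passed, LCIB higher and HLA3 and CIA5 lower, while 33.9% of all genes passed. The 10 genes had a median log2 fold change of 0.72 for UVM11-C1 and of -0.34 for UVM11-C9, against 0.00 and -0.01 over all genes. Both comparisons use the same 3 cultures of UVM11.

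CIA5 was lower in both complemented strains. It had 28.1, 29.6 and 30.0 FPKM in UVM11-C1, and 33.6, 32.0 and 32.5 FPKM in UVM11-C9, against 53.2, 58.3 and 56.8 FPKM in UVM11. UVM11-C1 differed from UVM11 by -0.94 ± 0.05 on the log2 scale (SE, limma adjusted p = 2.46e-11), and UVM11-C9 by -0.78 ± 0.05 (SE, limma adjusted p = 2.87e-10). Neither reached the size of a DEG, and the groups did not overlap. UVM11-C1 lay wholly below UVM11 in 15.7% of all genes and UVM11-C9 in 27.7%. In batch 1, UVM11, with 24.6 to 25.7 FPKM, was not above Elow47, with 25.9 to 28.1 FPKM (log2 fold change -0.11 ± 0.04, SE, limma adjusted p = 0.121).

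The genes next to CIA5 showed the same pattern, which was noticed after their values were seen. A run of 8 neighbouring tested genes, from Cre02.g096200 to Cre02.g096500, with CIA5 among them, lay on chromosome 2 from 3895095 to 3933845. All 8 passed as higher in UVM11 of batch 2 than in UVM11 of batch 1, with log2 fold changes from 0.61 to 1.40. All 8 passed as lower in UVM11-C1 than in UVM11, at -0.62 to -1.56, and in UVM11-C9, at -0.67 to -2.75. These 3 calls together were met by 195 of the 15424 tested genes with a position, or 1.26%, and the next longest run of such genes held 3. All 3 calls use the same 3 cultures of UVM11 of batch 2, so that a level raised in these cultures alone can meet all 3. As the run was picked after its values were seen, these numbers only describe it.

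The tested genes on either side did not meet all 3 calls. Cre02.g096150, before the run, was higher by 0.32 in UVM11 of batch 2 and lower in UVM11-C9, at -0.24, but differed by 0.09 in UVM11-C1 against UVM11, which did not pass. Cre02.g096551, after the run, was lower in UVM11 of batch 2, at -0.34, and passed in neither complemented strain against UVM11. HLA3, further along the chromosome, was outside the run and had a different pattern. None of the 8 genes passed in UVM11 against Elow47 in batch 1, where their log2 fold changes ranged from -0.20 to 0.61.

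**Figure D3:**
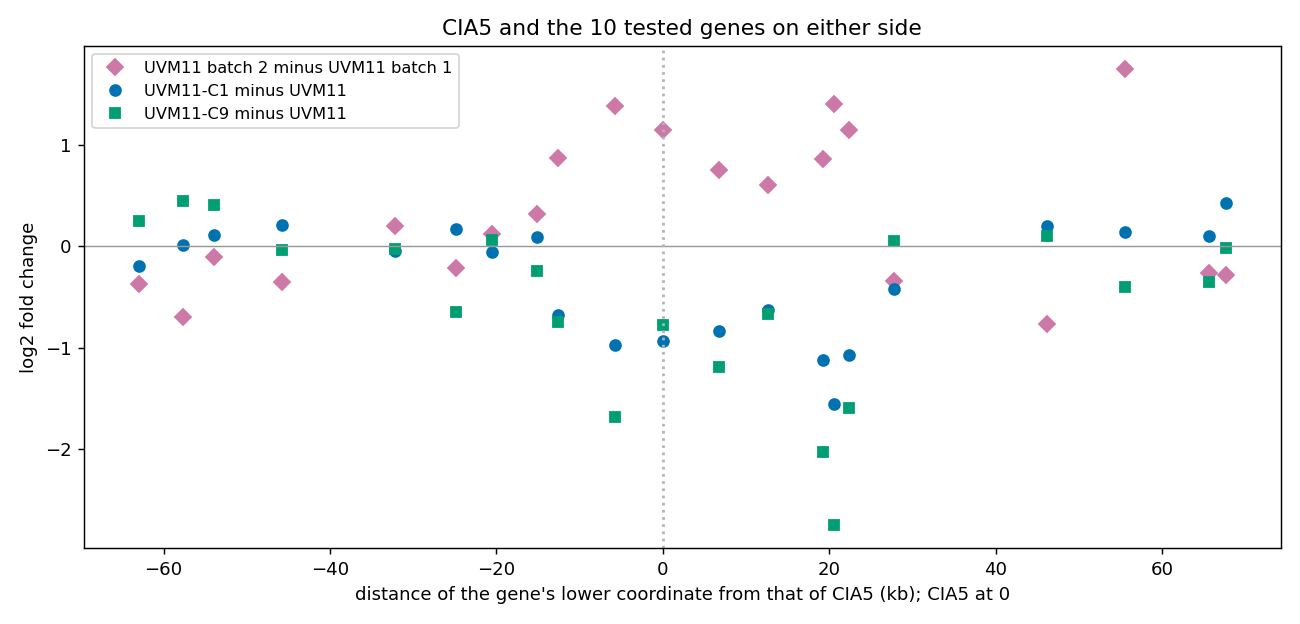
Log2 fold changes of CIA5 and of the 10 tested genes on either side, by distance of the lower coordinate of each gene from that of CIA5 in kb, for UVM11 of batch 2 against batch 1 (diamonds), UVM11-C1 against UVM11 (circles) and UVM11-C9 against UVM11 (squares). In the 8 genes from -12.6 to 22.4 kb the diamonds lie between 0.61 and 1.40 and the circles and squares between -2.75 and -0.62.

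HLA3 was the DEG among the 10 genes in UVM11-C9. It had 181, 97.2 and 21.4 FPKM in UVM11-C9, against 973, 224 and 311 FPKM in UVM11, without overlap, as in 27.7% of all genes in this direction. The difference was -2.50 ± 0.52 on the log2 scale (SE, limma adjusted p = 5.51e-04), with only 36 of the 15425 genes more negative, and 2.18% of all genes were DEGs of this direction. Without UVM11-C9 culture 3, the lowest, it was -1.62, without UVM11-C9 culture 1 it was -3.16, and without culture 5 of UVM11 it was -1.87. HLA3 ceased to pass when the model held the 2 strains alone (limma adjusted p = 0.0291). In UVM11-C1, HLA3 had 690, 874 and 509 FPKM, within the range of UVM11 (0.72 ± 0.52, SE, limma adjusted p = 0.354).

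LCIC and LCIB showed small differences in the complemented strains. LCIC had 337, 349 and 327 FPKM in UVM11-C1, against 315, 211 and 194 FPKM in UVM11 (log2 fold change 0.53 ± 0.13, SE, limma adjusted p = 0.00805), and 324, 315 and 258 FPKM in UVM11-C9 (0.34 ± 0.13, SE, limma adjusted p = 0.0347). LCIB had 365, 371 and 375 FPKM in UVM11-C9, against 277, 261 and 244 FPKM in UVM11 (0.51 ± 0.14, SE, limma adjusted p = 0.00667), and 320, 354 and 337 FPKM in UVM11-C1 (0.37 ± 0.14, SE, limma adjusted p = 0.077). Both calls were close to the threshold: that of LCIC was lost in 13 of 27 alternative settings and that of LCIB in 7 of 27.

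LCI1 had the largest estimate in UVM11-C1 of the 10 genes and did not pass. It had 1049, 1242 and 1269 FPKM in UVM11-C1, and 778, 712 and 473 FPKM in UVM11-C9, against 670, 274 and 242 FPKM in UVM11. Every culture of UVM11-C1 exceeded every UVM11 culture, as in 13.6% of all genes. The log2 difference was 1.74 ± 0.52 (SE, limma adjusted p = 0.0243). The gene passed without Elow47 culture 3 (limma adjusted p = 5.29e-04) and with a pseudocount of 1 (limma adjusted p = 7.75e-05). It did not pass when the model held the 2 strains alone (limma adjusted p = 0.0238), nor with a pseudocount of 0.01 (limma adjusted p = 0.328).

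Culture 5 of UVM11 widened the spread of other genes in batch 2. CAH4 had 231, 259 and 163 FPKM in UVM11-C1, against 236, 77.3 and 80.9 FPKM in UVM11, and did not pass (log2 fold change 0.91 ± 0.34, SE, limma adjusted p = 0.0709). Without culture 5 of UVM11 it passed at 1.43 (limma adjusted p = 0.00256), as did CAH5 at 1.26 (limma adjusted p = 0.00763), and 4 of the 10 genes then passed in UVM11-C1. CAH1, the gene of the largest difference between batches, varied little among the strains of batch 2. It had 956, 1138 and 1191 FPKM in UVM11-C1 and 1106, 1106 and 872 FPKM in UVM11-C9, against 1036, 731 and 715 FPKM in UVM11, and passed in neither comparison. The SE of 0.92 in both draws on the spread of CAH1 in batch 1 as well. Without Elow47 culture 3 the limma adjusted p was 0.244 for UVM11-C1 and 0.289 for UVM11-C9, against 0.790 and 0.797 with it.

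The complemented strains also differed from each other. In UVM11-C9 against UVM11-C1, HLA3, CAH4 and CAH5 were lower and DEGs, while 34.9% of all genes passed and 1.88% were DEGs of this direction. HLA3, with the values given above, differed by -3.22 ± 0.52 on the log2 scale (SE, limma adjusted p = 4.18e-05), with only 8 of the 15425 genes more negative. Without UVM11-C9 culture 3 the log2 fold change of HLA3 was -2.34, and without UVM11-C9 culture 1 it was -3.88. CAH4 had 94.0, 71.2 and 30.4 FPKM in UVM11-C9, against 231, 259 and 163 FPKM in UVM11-C1 (-1.86 ± 0.34, SE, limma adjusted p = 1.78e-04). CAH5 had 78.8, 62.7 and 24.6 FPKM in UVM11-C9, against 196, 189 and 133 FPKM in UVM11-C1 (-1.78 ± 0.35, SE, limma adjusted p = 3.62e-04).

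In 7 of the 10 genes every culture of UVM11-C9 was below every culture of UVM11-C1, where 25% of all genes are so arranged. LCIA had 465, 397 and 200 FPKM in UVM11-C9, against 700, 819 and 705 FPKM in UVM11-C1 (-1.15 ± 0.84, SE, limma adjusted p = 0.269). CCP1 had 562, 447 and 199 FPKM in UVM11-C9, against 769, 880 and 676 FPKM in UVM11-C1 (-1.06 ± 0.47, SE, limma adjusted p = 0.0701). Neither gene passed, although their groups were apart. The SE draws on the spread in batch 1 as well. Without Elow47 culture 3 the limma adjusted p was 0.0201 for LCIA and 0.0112 for CCP1, and neither passed. LCIB and CIA5 were on the other side, with every culture of UVM11-C9 above every culture of UVM11-C1, as in 28.1% of all genes, and did not pass.

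**Figure D4:**
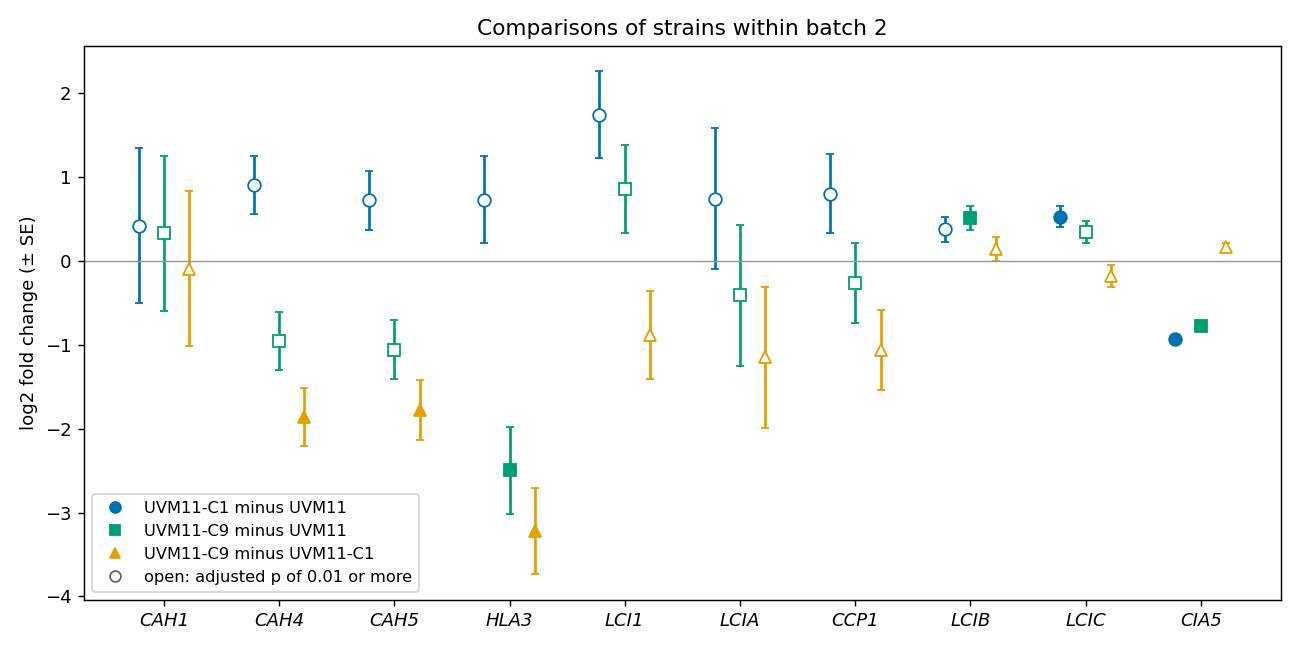
Log2 fold change with ± 1 SE from limma of each of the 10 genes for UVM11-C1 against UVM11 (circles), UVM11-C9 against UVM11 (squares) and UVM11-C9 against UVM11-C1 (triangles), with 3 cultures per strain. Filled symbols have an adjusted p below 0.01. HLA3 reaches -2.50 and -3.22 in the comparisons of UVM11-C9, and CIA5 is at -0.94 and -0.78 in the complemented strains against UVM11.

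Of the 20 other genes, 2 were higher and 2 lower in UVM11-C1 than in UVM11. In UVM11-C9, 5 were higher and 2 lower than in UVM11, and 3 were higher and 1 lower than in UVM11-C1. Over all genes tested, the shares that passed were 8.34% for UVM11-C1 and 33.9% for UVM11-C9, each set against UVM11, and 34.9% between UVM11-C9 and UVM11-C1. In these 3 comparisons 1, 2 and 1 of the 6 photorespiration genes passed, all as higher. One gene of the 20 was a DEG, lower in UVM11-C1, and none of the 6 was.

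The cultures of a strain differed from each other in these genes more than in most others. The SD of log2 values around the group means was 1.31 for CAH1 and 1.19 for LCIA, at the top of the 15425 genes, where Elow47 culture 3 and values near 0 take part, and 0.74 for HLA3, higher than in 99.4% of the genes. It was 0.20 for LCIB and 0.18 for LCIC. CIA5, at 0.05, was among the 2.9% of genes with the lowest spread.

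The deviations of cultures within batch 2 ran in parallel for most of the genes. Over the 9 cultures, with group means subtracted, the 28 pairs among the 8 genes other than LCIB and CIA5 correlated with r from 0.77 to 1.00, with a median of 0.93. The 8 pairs of LCIB with these genes had r from 0.23 to 0.64, and CIA5 had r from -0.55 to -0.17 with the other 9. These values come from 9 cultures, 3 of each strain, and each pair of genes was measured in the same libraries. Over all 21 cultures the 28 pairs had r from -0.08 to 0.98, with a median of 0.62. Without Elow47 culture 3 they had r from 0.22 to 0.98, with a median of 0.62. The 28 pairs include CAH4 with CAH5 (r = 1.00 in batch 2), between which the assignment of fragments is uncertain. Pairs of other genes were not computed, so that whether the parallel is particular to these genes was not tested. HLA3, CAH4 and CAH5 swung most. HLA3 ranged over 45.5-fold in batch 2, between 21.4 FPKM in UVM11-C9 culture 3 and 973 FPKM in UVM11 culture 5. CAH5 ranged over 8.90-fold and CAH4 over 8.51-fold, with the same lowest culture. CAH1 ranged over 1.67-fold and LCIB over 1.54-fold, and LCIB was highest in the culture in which HLA3 was lowest.

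**Figure D5:**
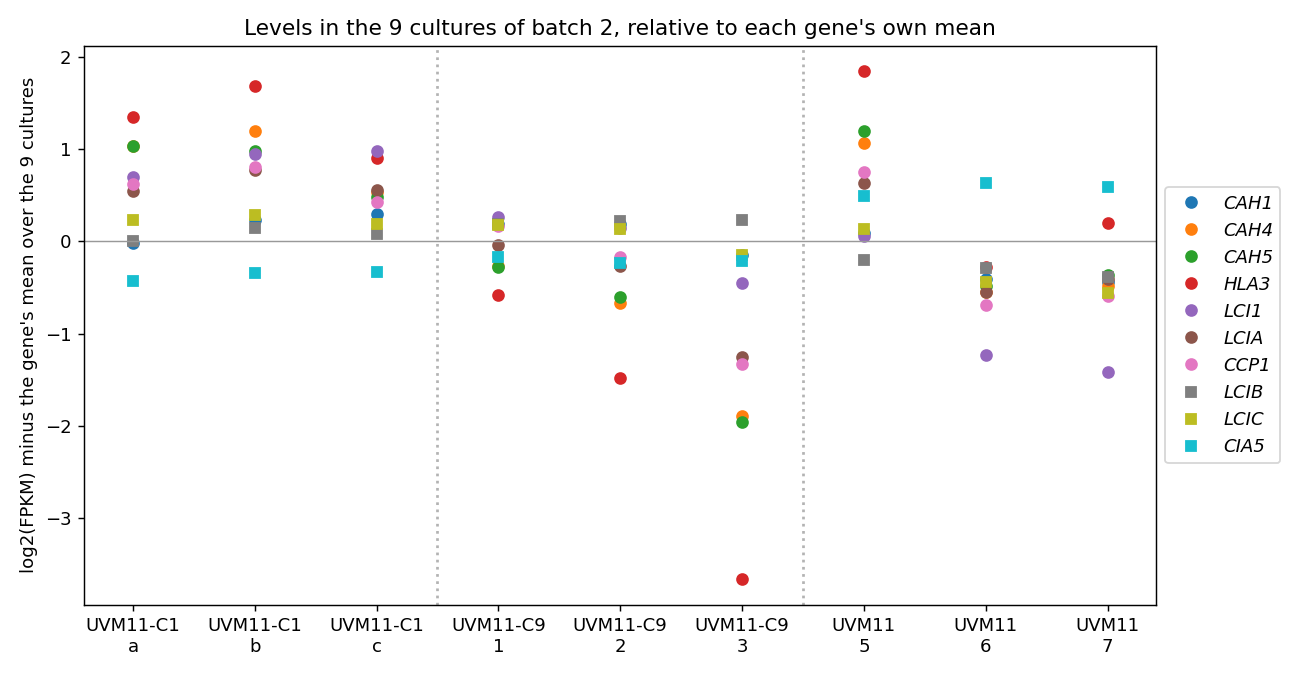
Log2 FPKM of each of the 10 genes in the 9 cultures of batch 2, minus the mean of the gene over these cultures, with 1 column per culture. UVM11-C9 culture 3 holds the lowest points, with HLA3 at 21.4 FPKM, and UVM11 culture 5 holds the highest, with HLA3 at 973 FPKM. LCIB, LCIC and CIA5 (squares) and CAH1 stay nearest to their means.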

How the data were processed

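Transcripts were measured by RNAseq in 21 cultures. The study's methods name a KAPA mRNA kit and the labels a TruSeq total RNA kit, and which was used is not settled. The authors aligned reads with STAR (version 2.4.0j) to version 5 of the genome, computed FPKM for the v5.5 gene models with Cuffdiff (version 2.2.1) and deposited 1 FPKM value per gene and culture. The counts behind the study's own gene lists were not used here. Columns were assigned by their labels. Those of UVM11-C1 were assigned to the strain only and are named a, b and c.

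FPKM values were tested as log2(FPKM + 0.1) with limma (version 3.58.1) in R (version 4.3.3), with no further scaling. The model held 6 groups of strain and batch (15 residual degrees of freedom), and the variance prior followed mean expression. The 15425 genes with a mean above 0.1 FPKM were tested and 2316 were not. The p-values are two-sided, with Benjamini-Hochberg adjustment over all genes tested. Cultures are the replicates, and p-values measure the spread between them. The code was tested on simulated data.

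The members and gene lists were chosen with earlier results of these data known. Named genes are the 10 members, SRTA, the genes most like the members, and the neighbours of CIA5, which were chosen after their values were seen. The lists of 20 and 6 genes have no names in the annotation used and were counted only, apart from Cre04.g222750. Positions come from the RefSeq table of assembly v5.5, which held 17738 of the 17741 genes. Alternatives were quantile normalization, pseudocounts of 1 and 0.01, testing every gene or those above a mean of 1 FPKM, fitting the compared groups by themselves, a block for the replicate number in batch 1, and omitting each culture in turn. Figures were drawn with matplotlib (version 3.10.9) in Python (version 3.11.15), and tables made with pandas (version 2.3.3).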

Additional observations from a re-analysis of the deposited data

Results flagged for a closer look

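A value far from the other 3 of its group was found in 6 of the 30 combinations of gene and strain of batch 1 that were examined, by a bound that chance passes in about 1 in 20 independent groups, while the groups here share cultures. Of these, 4 belonged to Elow47 culture 3: CAH1 at 5.79 FPKM, LCIA at 7.08 FPKM, LCI1 at 0.551 FPKM and CCP1 at 4.26 FPKM. The other 2 were LCIC in UVM4 culture 2, at 73.5 FPKM, and LCI1 in UVM4 culture 1, at 0.0742 FPKM, where the other 3 cultures are listed at 0. Of these 4 genes, CAH1, LCIA and LCI1 reached at most 0.168, 0.376 and 0.102 FPKM in the rest of batch 1, and CCP1 was at 0.659 to 1.55 FPKM there. CAH5, LCIB and HLA3 were also highest in Elow47 culture 3, at 2.86, 140 and 4.26 FPKM, and were not flagged. They reached at most 2.82, 117 and 3.45 FPKM in the rest of batch 1. What set this culture apart was not tested.

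The change against UVM11 differed between UVM11-C9 and UVM11-C1 in 3 of the 10 genes by the test of the difference itself, which 34.9% of all genes passed. By count the 10 genes were thus not above all genes. All 3 were DEGs, as were 1.88% of all genes in this direction. They include CAH4 and CAH5, between which the assignment of fragments is uncertain. HLA3 differed by a log2 fold change of -3.22, CAH4 by -1.86 and CAH5 by -1.78, all lower in UVM11-C9 (limma adjusted p = 4.18e-05, 1.78e-04 and 3.62e-04). Without UVM11-C9 culture 3 the value of HLA3 was -2.34, and without UVM11-C9 culture 1 it was -3.88. The change against Elow47 differed between UVM4 and UVM11 in 1 gene, LCIC, by 0.53 (limma adjusted p = 0.00404), a test that 4.75% of all genes passed.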

How the results depend on the processing

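Of the 70 log2 fold changes of the 10 genes over the 7 comparisons, 53 kept their call under every alternative, and no called value changed sign. Of the 1920 alternative values, 29 of uncalled results had another sign. In UVM11 of batch 2 against batch 1, all 10 genes passed under every alternative. In UVM4 against Elow47 none passed under any. In UVM11 against Elow47, 1 passed in the model of the groups compared alone (CAH4). In the model of batch 1 alone 1 passed without the block (CAH4) and 1 with the replicate number as a block (LCIC), and none passed with any culture left out of the model of all groups. In UVM4 against UVM11, none passed after quantile normalization and 2 in the model of the groups compared alone, and leaving out 1 culture gave 0 to 2, with 2 without Elow47 culture 3. In UVM11-C1 against UVM11, 1 passed with no filter, after quantile normalization and with the groups compared alone, 3 passed with a pseudocount of 1, and leaving out 1 culture gave 1 to 4, with 4 without Elow47 culture 3 or without UVM11 culture 5. In UVM11-C9, 2 to 4 genes passed against UVM11 and 3 to 4 against UVM11-C1 under the alternatives. The cause of these changes was not tested.

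Cultures of batch 1 with the same number did not pair, with r from -0.14 to 0.15 for their deviations. In the model of batch 1 alone, the block took the number of passing genes to 510, against 649 without it, in UVM4 against Elow47, to 492, against 619, in UVM11 against Elow47, and to 602, against 763, in UVM4 against UVM11. In batch 2 no such fit was made: the numbers of UVM11 differ from those of the complemented strains, and the columns of UVM11-C1, whose names differ from those of UVM11 only in the case of 1 letter, were assigned to the strain and not to single samples. The FPKM values carry no depth, and for genes near 0 FPKM in batch 1 the size of a fold change depends on the pseudocount.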
